A study of Drosophila melanogaster with 8 samples.

Results

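The Tweedle and Osiris genes are 2 families of cuticle-associated genes, and their RNA was followed here in the pupal CNS of Drosophila. The members are every row of both CuffDiff tables whose gene name starts with Twdl, or with Osi and a digit, which gave 25 Tweedle and 23 Osiris genes, 48 of 13989 genes listed. The study asked which transcripts change when dStim, the calcium sensor of the endoplasmic reticulum, is knocked down in neurons for 24 h, and which stay changed after recovery. Wild type CNS (Canton S) and knockdown CNS (ElavC155GAL4; dStimRNAi/tubulinGAL80ts) were taken at 36 h after puparium formation (APF). The same genotypes were taken at 72 h APF, the knockdown animals after 24 h of knockdown and 36 h of recovery. Each of the 4 groups has 2 biological replicates of about 10 pooled CNS, and all animals are labelled as reared at 25 °C with 29 °C for knockdown. The driver acts in all neurons and the temperature-sensitive GAL80 limits it in time. Canton S carries none of these transgenes, so genetic background and knockdown cannot be told apart in these comparisons.

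Insect cuticle is a layered chitin and protein matrix that epithelial cells secrete at their apical surface, and pupal development includes the secretion of the adult cuticle. Tweedle proteins are secreted structural proteins of the cuticle, and dominant mutations in family members make a short and stout body. Osiris proteins are an insect-specific family with a signal peptide, most of them encoded in 1 cluster on chromosome arm 3R at the Triplo-lethal region, and are known from epithelia that secrete cuticle, such as epidermis, trachea and bristle-forming cells. An exception is Osi21 (diehard4), which is known from photoreceptor neurons. Tracheal branches run over and into the CNS.

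The values are FPKM (a level corrected for transcript length and for the size of the library), 1 per gene and group, pooled by the authors over the replicates. There is thus no SD and no test behind any value below, and a difference between groups cannot be set against the spread between replicates. The 36 h and the 72 h tables were normalized separately, and between them the median gene was lower at 72 h by a log2 ratio of -0.38 in wild type. A ratio is given for genes above 0 in both groups with at least 1 FPKM in 1 of them, and a difference of at least 2-fold is counted as called. Of the markers of the labelled tissue, 8 of 10 neuronal and 8 of 8 glial genes were matched, and all were expressed in every group. The pan-neuronal elav lay between 25.5 and 91.6 FPKM and the glial repo between 37.5 and 62.0 FPKM. The targeted dStim (listed as Stim) had 42.2 FPKM in wild type and 33.9 FPKM in knockdown at 36 h, and 38.6 and 31.3 FPKM at 72 h, ratios of 0.803 and 0.809. The pooled FPKM of dStim relative to wild type was thus about the same at both ages. The paper reports that the knockdown significantly reduced both dStim RNA and its protein. It also reports, from quantitative PCR, that dStim expression was restored at the later age. The FPKM used here do not show that return, and without replicates they cannot decide against it. The words "after recovery" are used here as the label of the group only.

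Part of the Osiris family reached high levels in these CNS samples, and most of the Tweedle family was under 1 FPKM. In wild type at 36 h, 13 of 23 Osiris genes had at least 10 FPKM, as did 48.5% of all genes, and 9 had at least 100 FPKM, as did 8.15% of all genes. In the recovered knockdown group 7 of 23 had at least 1 FPKM, beside 64.1% of all genes. The summed Osiris level was 3166 FPKM in wild type and 2581 FPKM in knockdown at 36 h, and 1604 FPKM in wild type and 552 FPKM after recovery at 72 h. That was 0.5% of all FPKM in wild type at 36 h, 0.417% in knockdown, 0.252% in wild type at 72 h and 0.0893% after recovery. The summed Tweedle level was 94.4 and 73.6 FPKM at 36 h, and 934 and 842 FPKM at 72 h, in the same order. Since these are bulk samples, fewer cells that express a gene and less RNA per cell cannot be told apart.

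**Figure D1:**
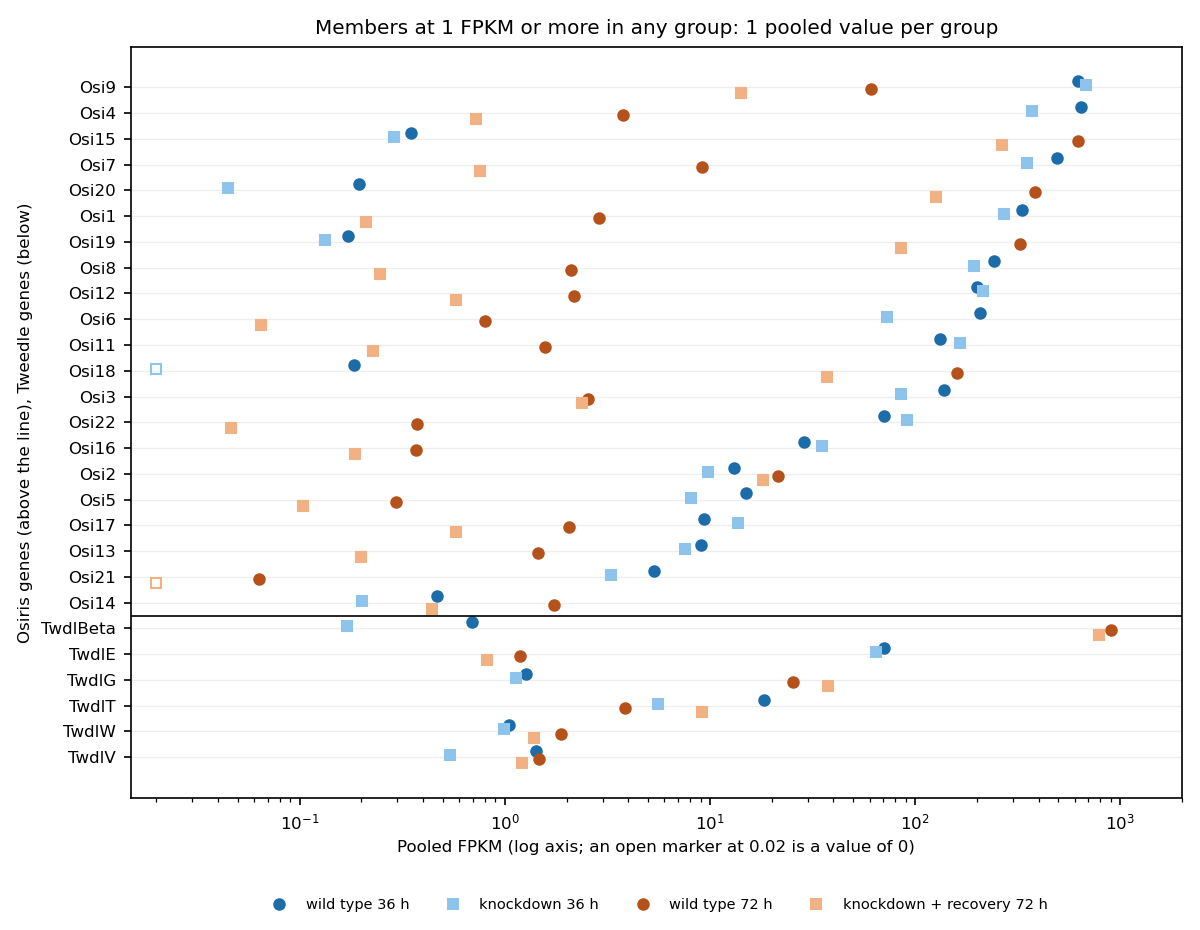
Pooled FPKM (log axis) of the 27 members with at least 1 FPKM in any group, 1 point per group, with Osiris genes above the line and Tweedle genes below it. The 36 h points (blue) and the 72 h points (brown) lie far apart for most genes, to the right at 36 h for genes such as Osi4 and at 72 h for Osi15, Osi18, Osi19, Osi20 and TwdlBeta, and the recovered knockdown points of Osiris genes lie left of the wild type points at 72 h.

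The age of the pupa split the Osiris family into an early and a late set in wild type CNS. Of 21 Osiris genes past the filter, 15 were at least 2-fold lower at 72 h than at 36 h, against 25.6% of all genes, and 5 were at least 2-fold higher, against 16.0% of all genes. The median log2 ratio of the 21 genes was -5.75, beside -0.38 for all genes. Only genes above the minimum at both ages avoid a filter that lets a gene in through the age at which it is high, and of 11 such Osiris genes 10 were at least 2-fold lower at 72 h, against 23.6% of all genes. This stricter minimum leaves out all 5 genes that were at least 2-fold higher at 72 h, since each was under 1 FPKM at 36 h.

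Osi4, Osi9, Osi7 and Osi1 led the early set and held 66.1% of the family's FPKM in wild type at 36 h. Osi4 had 645 FPKM in wild type and 372 FPKM in knockdown at 36 h, and 3.78 and 0.721 FPKM at 72 h. Osi9 had 625 and 680 FPKM at 36 h, and kept 61.2 FPKM in wild type and 14.3 FPKM after recovery at 72 h. They ranked 142nd and 146th of all genes in wild type at 36 h. Osi7 had 490 and 353 FPKM at 36 h, and 9.13 and 0.761 FPKM at 72 h. Osi1 had 332 and 272 FPKM at 36 h, and 2.90 and 0.211 FPKM at 72 h. In both genotypes each of these genes was thus far lower at the later age, and Osi9 was the only early gene above 10 FPKM at 72 h.

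Osi8 (242 and 194 FPKM), Osi6 (207 and 73.4 FPKM), Osi12 (200.3 and 215 FPKM), Osi3 (139 and 85.5 FPKM) and Osi11 (132 and 166 FPKM) formed the next tier in wild type and knockdown at 36 h. Their levels at 72 h were 2.10, 0.798, 2.18, 2.53 and 1.58 FPKM in wild type, and 0.246, 0.0647, 0.579, 2.38 and 0.227 FPKM after recovery, in the same order. All 5 were thus low at 72 h in both genotypes. Osi22, which lies outside the main cluster, had 70.7 and 90.9 FPKM at 36 h and 0.375 and 0.0464 FPKM at 72 h. Osi16 had 28.7 and 35.3 FPKM at 36 h, and 0.368 and 0.187 FPKM at 72 h. Osi5 had 15.025 and 8.05 FPKM at 36 h, and 0.297 and 0.103 FPKM at 72 h. These genes were early at lower levels, and so were Osi17, Osi13 and Osi21. Osi17 had 9.32 and 13.7 FPKM at 36 h, and 2.05 and 0.575 FPKM at 72 h. Osi13 had 9.01 and 7.56 FPKM at 36 h, and 1.45 and 0.199 FPKM at 72 h. Osi21 lies on 2L and had 5.36 and 3.30 FPKM at 36 h, and 0.0636 FPKM in wild type and 0 after recovery at 72 h.

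Osi15, Osi20, Osi19 and Osi18 made up the late set and held 92.9% of the family's FPKM in wild type at 72 h. Osi15 had 0.349 FPKM in wild type and 0.287 FPKM in knockdown at 36 h, and 619 FPKM in wild type and 264 FPKM after recovery at 72 h. Osi20 had 0.194 and 0.0447 FPKM at 36 h, and 384 and 126 FPKM at 72 h. Osi19 had 0.172 and 0.133 FPKM at 36 h, and 326 and 85.0 FPKM at 72 h. The groups of the 2 ages do not approach each other in any of these genes. Osi18 had 0.185 FPKM in wild type at 36 h, was listed at 0 in knockdown, and had 161 and 37.3 FPKM at 72 h. The 36 h values of these genes stand for about 4 to 9 fragments in wild type, so no fold against them is given. Osi14 was higher at 72 h too, at a low level (0.467 and 1.74 FPKM in wild type), with a ratio of 3.72.

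Osi2 was the only Osiris gene past the filter that stayed within 2-fold between the ages, with 13.2 and 9.74 FPKM at 36 h and 21.4 and 18.2 FPKM at 72 h. Osi10 and Osi23 were under 1 FPKM in all 4 groups. Osi23, known as gore-tex and needed for the pores of olfactory hairs, had 0.611 and 0.269 FPKM at 36 h, and 0.0592 FPKM in wild type and 0 after recovery at 72 h. Osi10 is a single gene in these tables and 2 genes (Osi10a and Osi10b) in the current annotation. In the knockdown animals 14 of 18 Osiris genes past the filter were at least 2-fold lower at 72 h (28.9% of all genes) and 3 at least 2-fold higher (14.9% of all genes). Only Osi2, Osi3 and Osi9 had at least 1 FPKM at both ages there, and of these 3 genes Osi3 and Osi9 were at least 2-fold lower (25.5% of all genes). As both ages' comparisons share these libraries with the comparisons of genotype, the values are given side by side only.

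Early and late Osiris genes occupied different stretches of the cluster. Osi1 to Osi20 lie at 3R 1999367 to 2167146 (dm3), 167.8 kb that hold 20 Osiris genes and 7 other listed genes. The late genes Osi15, Osi18, Osi19 and Osi20 all lie in the last 39.6 kb, from 3R 2127528 to 2167146, and the weakly late Osi14 lies next to Osi15. This stretch is not uniform, since the early genes Osi16 and Osi17 lie between Osi15 and Osi18, and Osi18, Osi19 and Osi20 are adjacent at its end. The early genes with at least 100 FPKM in wild type at 36 h all lie between Osi1 and Osi12.

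Genes inside the cluster that carry another name did not all share the pattern. NPFR1, a receptor for neuropeptide F that lies between Osi1 and Osi2, had 6.91 FPKM in both genotypes at 36 h, and 14.2 and 14.5 FPKM at 72 h. Its ratios of knockdown to wild type were 1.00 and 1.02, beside 0.819 and 0.073 for Osi1. CG15589, beside NPFR1, is named Osi24 in RefSeq's Release 6 annotation and falls outside the naming rule. It had 11.6 and 15.4 FPKM at 36 h, and 1.52 and 0.682 FPKM at 72 h, an early profile. CG31556, between Osi16 and Osi17, was early at a low level, with 2.13 and 3.56 FPKM at 36 h and 0.270 and 0.0796 FPKM at 72 h. The other 4 genes of the cluster, CG31562, CG15597, CG15594 and CG31560, had at most 0.185 FPKM.

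**Figure D2:**
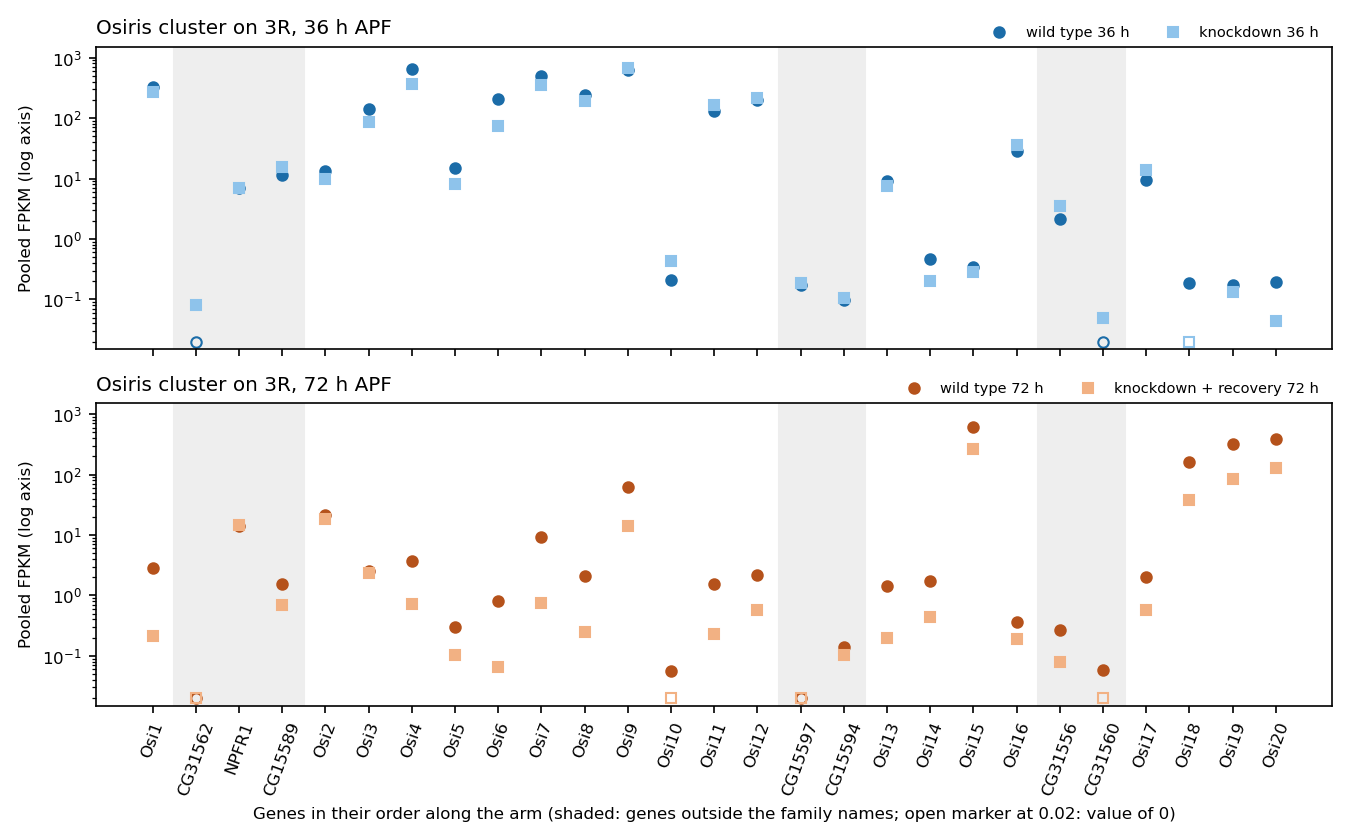
Pooled FPKM (log axis) of the 27 genes of the 3R cluster in their order along the arm, at 36 h (top) and 72 h (bottom), with circles for wild type, squares for knockdown and shading for genes with other names. At 36 h the high values lie from Osi1 to Osi12, at 72 h at Osi15 and from Osi18 to Osi20, and the squares lie below the circles for Osiris genes at 72 h.

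In the Tweedle family, 19 of 25 genes were under 1 FPKM in all 4 groups, and 8 of these (TwdlB, TwdlH, TwdlJ, TwdlK, TwdlL, TwdlO, TwdlR and TwdlS) were listed at 0 in every group. These 8 lie in the Tweedle cluster at 3R 22444845 to 22519245 (dm3), whose 13 members had at most 0.367 FPKM. TwdlD, a cluster member for which the short and stout body shape was described, had 0.199 FPKM in wild type at 36 h and 0.172 FPKM at 72 h, and was listed at 0 in both knockdown groups. Tb (Tubby), a Tweedle family gene with another name that lies inside the span of this cluster, lay between 0.244 and 0.345 FPKM. The counts behind these values are too small to tell the groups apart.

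The Tweedle genes that were expressed lie elsewhere in the genome, and they too differed with age. TwdlBeta (named Twdlbeta in the current annotation, 2R 7750042 to 7750753) had 0.690 FPKM in wild type and 0.171 FPKM in knockdown at 36 h. At 72 h it had 898 FPKM in wild type and 790 FPKM after recovery, the highest level of any member. TwdlG (3R 74440 to 76518) had 1.26 and 1.14 FPKM at 36 h, and 25.5 and 37.6 FPKM at 72 h. Both were late genes in both genotypes, TwdlG with a ratio of 20.2 between the ages in wild type.

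TwdlE (2L 7857957 to 7860838) was the main early Tweedle gene, with 70.8 and 64.6 FPKM at 36 h, and 1.19 and 0.815 FPKM at 72 h. TwdlT had 18.3 FPKM in wild type and 5.59 FPKM in knockdown at 36 h, and 3.84 FPKM in wild type and 9.12 FPKM after recovery at 72 h. It was thus early in wild type and not in the knockdown animals. TwdlT shares its entry of the locus column with 3 other genes, among them NepYr, so its reads may be less surely assigned. TwdlV and TwdlW stayed between 0.539 and 1.88 FPKM. Over the 6 Tweedle genes past the filter the median log2 ratio of 72 h to 36 h in wild type was 0.45, with 2 at least 2-fold higher (16.0% of all genes) and 2 at least 2-fold lower (25.6% of all genes).

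At 36 h, directly after knockdown, few members differed by 2-fold from wild type. Of 16 Osiris genes past the filter 1 was at least 2-fold lower in knockdown, Osi6, against 3.66% of all genes, and 0 were at least 2-fold higher, against 2.46% of all genes. The level of Osi6 was 207 FPKM in wild type and 73.4 FPKM in knockdown, a ratio of 0.354. The median log2 ratio of the 16 genes was -0.30, beside 0.00 for all genes. Of 5 Tweedle genes 2 were at least 2-fold lower, TwdlT with a ratio of 0.306 and TwdlV with 1.41 and 0.539 FPKM and a ratio of 0.382. TwdlV rests on about 31 fragments in wild type and about 10 in knockdown. TwdlV and TwdlW passed the filter through wild type alone. With 1 FPKM or more in both groups, 1 of 3 Tweedle genes, TwdlT, was at least 2-fold lower. These counts are too small to be read against the shares of all genes.

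Within the cluster, all of Osi1 to Osi8 were lower in knockdown, with ratios from 0.354 (Osi6) to 0.819 (Osi1) and a median of 0.666. From Osi9 to Osi20 5 of 6 genes past the filter were higher (49.9% of all genes were higher at any ratio), with ratios from 1.07 (Osi12) to 1.47 (Osi17), and Osi13 was lower with a ratio of 0.839. Among all genes 50.1% were lower at any ratio, and the split of the cluster was chosen after the values were seen. The genes with other names between Osi1 and Osi2 were not lower, with ratios of 1.00 for NPFR1 and 1.33 for CG15589 (Osi24). Outside the cluster, Osi22 had a ratio of 1.29 and Osi21 one of 0.615.

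At 72 h, after recovery, the Osiris family was lower in knockdown CNS across its early and late members. All 16 genes past the filter were lower than in wild type (52.0% of all genes were lower at any ratio). At least 2-fold lower were 14 of them, against 7.08% of all genes, and 0 were at least 2-fold higher, against 2.25%. Since 9 of the 16 passed the filter through the wild type group alone, the 7 with at least 1 FPKM in both groups are the better guide. These 7 were all lower (49.8% of all genes over the same filter), and 5 of them at least 2-fold (2.36% of all genes).

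The late genes had ratios of recovered knockdown to wild type of 0.427 (Osi15), 0.328 (Osi20), 0.261 (Osi19) and 0.232 (Osi18). Each stands for at least 952 fragments in either group at 72 h by the estimate used here. The still detectable Osi9 had a ratio of 0.233, close to that of Osi18. Osi2 and Osi3 were the exceptions, with ratios of 0.848 and 0.942, and Osi3 was level at 2.53 and 2.38 FPKM although its neighbour Osi4 had 3.78 and 0.721 FPKM. Among the early genes that were under 1 FPKM after recovery, the ratio was 0.073 for Osi1, 0.0834 for Osi7 and 0.117 for Osi8, and these recovered levels rest on about 5, 41 and 6 fragments.

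**Figure D3:**
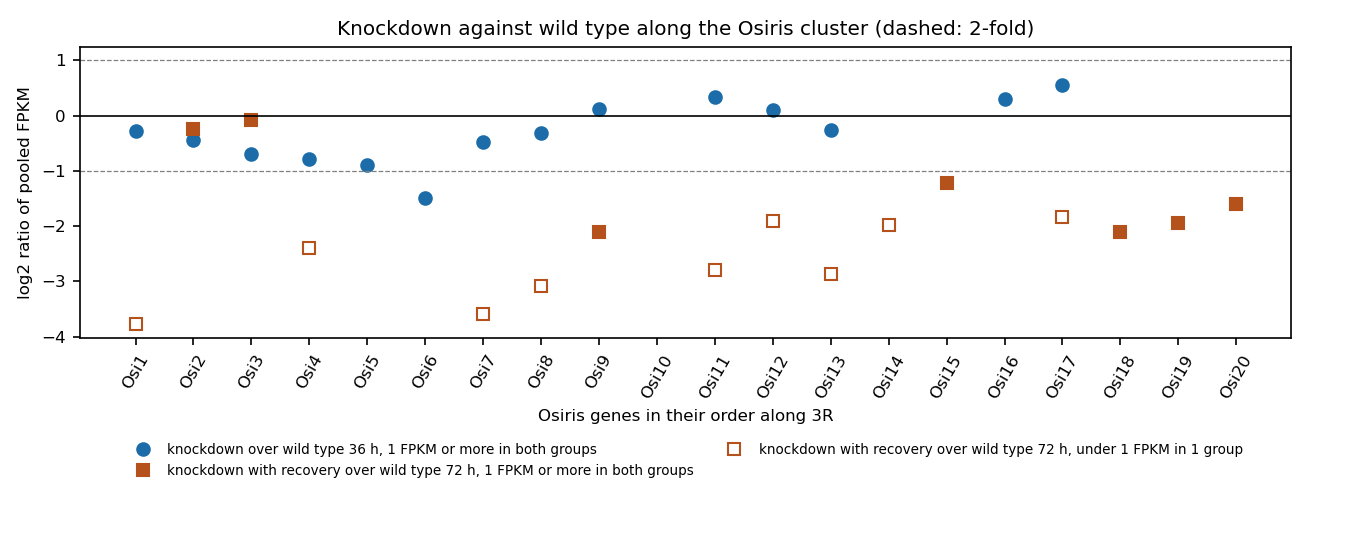
Log2 ratio of pooled FPKM, knockdown over wild type at 36 h (circles) and recovered knockdown over wild type at 72 h (squares, open where 1 group was under 1 FPKM), for the Osiris genes past the filter in their order along 3R. At 36 h the ratios lie below 0 from Osi1 to Osi8 and mostly above 0 after that, and at 72 h all lie below 0, with Osi2 and Osi3 nearest to it.

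Of 6 Tweedle genes past the filter at 72 h, 0 were at least 2-fold lower after recovery (7.08% of all genes) and 1 was at least 2-fold higher (2.25% of all genes), TwdlT with a ratio of 2.37. With 6 genes these counts are too small to be read against those shares. TwdlBeta had a ratio of 0.880 and TwdlG one of 1.47, so the late Tweedle genes lay near or above wild type where the late Osiris genes lay at 0.427 or less. The median log2 ratio was -0.23 for the Tweedle and -2.04 for the Osiris genes, beside -0.02 for all genes. The Osiris median was -1.61 over the 7 genes with at least 1 FPKM in both groups, and -1.27 with a pseudocount of 1. Genes are not replicates, so the difference between the families was not tested. The change between the ages was not tested either. The ratio of TwdlT went from 0.306 at 36 h to 2.37 at 72 h, and that of Osi9 from 1.09 to 0.233.

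Other genes of cuticle formation had medians below 1 after recovery, and are read beside all genes, of which 52.0% were lower at any ratio and 7.08% at least 2-fold. Of 12 genes of chitin synthesis and modification, 10 were lower at 72 h at any ratio and 3 at least 2-fold, with a median ratio of 0.693. The chitin synthase gene kkv had 4.09 FPKM in wild type and 1.59 FPKM after recovery. Of 8 chitin-binding and cuticle structure genes past the filter 7 were lower and 2 at least 2-fold, with a median ratio of 0.708. Of 5 genes past the filter for proteins with a zona pellucida domain, which anchor the apical matrix to the membrane, all were lower and 1 at least 2-fold, with a median ratio of 0.711. Of these, cyr (1.01 and 0.158 FPKM), the 2-fold call, and zye (1.33 and 0.693 FPKM) passed the filter through wild type alone. Of 40 genes of the Rebers-Riddiford (Cpr) cuticle protein family 27 were lower and 7 at least 2-fold lower, while 2 were at least 2-fold higher, with a median ratio of 0.731. Of 9 genes past the filter among other early cuticle protein genes 6 were lower and 3 at least 2-fold lower, with a median ratio of 0.594. Among these, Lcp65Ag1 (3.40 and 0.130 FPKM) and Ccp84Ad (1.48 and 0.882 FPKM) passed through wild type alone. So did Cda9 (1.80 and 0.993 FPKM) of the chitin synthesis list. The lists were not counted with a minimum in both groups. Of 7 tanning and pigmentation genes 0 passed 2-fold in either direction, and their median ratio was 0.973. In CNS samples this list does not stand for cuticle alone. The paper names 1 of its genes, ple, as that of a dopamine-synthesizing enzyme, studied in dopaminergic neurons. At 36 h the zona pellucida list went the other way, with 0 of 8 genes lower and a median ratio of 1.36. The Cpr and tanning lists had medians of 1.22 and 1.04 there. The Cpr list was mixed at 36 h, with 14 of 31 genes past the filter lower. Of these 31 genes 6 were at least 2-fold lower and 8 at least 2-fold higher (2.46% of all genes). Its summed level was 613 FPKM in wild type and 410 FPKM in knockdown. Of 8 chitin-binding and cuticle structure genes 6 were lower at 36 h and 3 at least 2-fold, with a median of 0.723. Of 12 chitin synthesis genes 8 were lower and 2 at least 2-fold, with a median of 0.884. Among all genes 50.1% were lower at 36 h at any ratio and 3.66% at least 2-fold.

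Several of these genes were early as well. The zona pellucida genes m (miniature), nyo and neo had 22.2, 28.0 and 24.6 FPKM in wild type at 36 h, and 0.142, 0.278 and 0.230 FPKM at 72 h. Of the regulators, grh (grainy head, a transcription factor) had 5.52 FPKM in wild type at 36 h and 0.260 FPKM at 72 h. The cells that carried it were not resolved in these bulk samples. The nuclear receptor gene ftz-f1 had 1.32 FPKM at 36 h and 66.8 FPKM at 72 h in wild type, and 106 FPKM after recovery. Of 10 regulators past the filter at 72 h, 0 were lower than in wild type (52.0% of all genes), and their median ratio was 1.51. Not among these 10 were ovo (0.281 and 0.264 FPKM) and grh (0.260 and 0.274 FPKM), which were under the filter at 72 h.

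**Figure D4:**
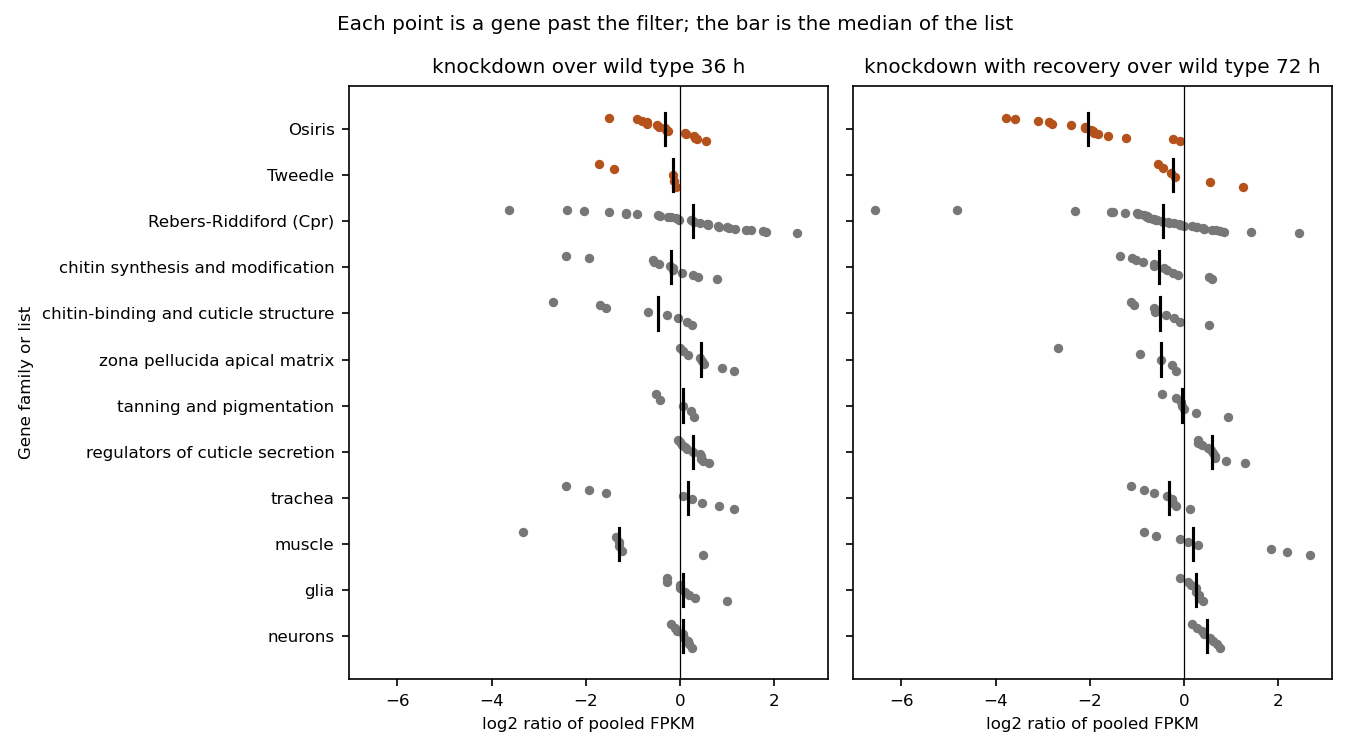
Log2 ratio of pooled FPKM of each gene past the filter (points) and the median of each family or list (bar), for knockdown over wild type at 36 h (left) and recovered knockdown over wild type at 72 h (right). At 72 h the Osiris points lie to the left of 0 with a median of -2.04, the other cuticle lists plotted have medians between -0.53 and -0.04, and neurons and regulators lie to the right of 0.

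Markers of other cell types differed with genotype too, and their part in the Osiris and Tweedle values was not tested. At 72 h all 8 neuronal markers were higher after recovery than in wild type, with a median ratio of 1.40, and 7 of 8 glial markers were higher, with a median ratio of 1.20. Among all genes 52.0% were lower at 72 h at any ratio and 7.08% at least 2-fold. Most tracheal markers stand in the cuticle lists too, and of 8 past the filter 7 were lower at 72 h, and the summed level of the list was 400.5 FPKM in wild type and 276 FPKM after recovery. The tracheal determinant trh itself had 7.46 and 8.18 FPKM. Of 6 fat body markers past the filter at 72 h 5 were lower and 0 at least 2-fold lower, with a median ratio of 0.793. Their list summed to 145 FPKM in wild type and 112 FPKM after recovery. At 36 h 3 of 6 fat body markers were lower (50.1% of all genes), with a median ratio of 1.23. The summed level of the epidermis and cuticle list was 1085 FPKM in wild type and 349 FPKM after recovery, with 3 of 8 genes at least 2-fold lower and a median ratio of 0.629. All genes of this list also stand among the Cpr or the other early cuticle protein genes above. It thus gives no view of the epidermis apart from those lists. Cpr65Ea and Acp65Aa took most of that difference, at 298 and 3.15 FPKM and at 693 and 269 FPKM.

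At 36 h the epidermis and cuticle list summed to 398 FPKM in wild type and 142 FPKM in knockdown, with 4 of 7 genes at least 2-fold lower and 1, Edg84A, at least 2-fold higher. Most of that difference in sum was Cpr66D, at 375 and 133 FPKM. Edg84A, at 0.510 and 1.74 FPKM, passed the filter through knockdown alone, and Edg78E, at 1.42 and 0.545 FPKM, through wild type alone. Among all genes 3.66% were at least 2-fold lower at 36 h and 2.46% at least 2-fold higher. The tracheal list summed to 495 and 504 FPKM, with a median ratio of 1.12. Of its 8 genes past the filter serp, verm and Gasp were at least 2-fold lower and the other 5 were higher, pio with a ratio of 2.22. The sum was carried by tyn, at 249 and 346 FPKM. Of 6 muscle markers past the filter 5 were at least 2-fold lower in knockdown at 36 h, with a summed level of 121 and 48.0 FPKM. At 72 h 0 of 8 muscle markers were at least 2-fold lower (7.08% of all genes) and 3 were at least 2-fold higher (2.25% of all genes). The imaginal disc, wing and bristle list summed to 187 and 277 FPKM at 36 h and to 43.7 and 50.3 FPKM at 72 h, with 0 genes at least 2-fold lower in knockdown at either age. Most of its difference in sum at 36 h was sn, at 113 and 199.7 FPKM, and the median ratio of the list was 1.04. The blood cell list summed to 56.0 and 59.4 FPKM at 36 h and to 56.5 and 61.9 FPKM at 72 h. Of its 6 genes only 2 passed the filter at 36 h. At 72 h 3 of 4 past the filter were lower (52.0% of all genes) and 1 at least 2-fold, with a median ratio of 0.942. The blood cell markers crq and Ppn were the highest, while Hml lay between 0.0797 and 0.855 FPKM.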

How the data were processed

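RNA from 8 samples was sequenced by the authors. Per the labels and the study's methods, reads were aligned to dm3 with TopHat2 2.0.11, and Cuffdiff 2.2.0 with geometric normalization gave 1 deposited FPKM per gene and group, pooled by the authors over 2 replicates. The gene annotation is not given in the sources used here. The authors' comparison columns in these tables (fold changes, test statistics, p-values and q-values) were not used, nor were the 2 edgeR tables, which hold fold changes, average CPM and p-values. Rows without a gene name (3) were left out.

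Ratios of FPKM were computed without a pseudocount for genes above 0 in both groups and at 1 FPKM or more in 1 of them, and 2-fold was counted as called. The tables used give no depth per sample. Low values of genes with 1 transcript, multiplied by its length, peaked at 0.0492 to 0.0556 FPKM kb, taken as 1 fragment in 1 library. Numbers of fragments are estimates from this and from transcript lengths of Ensembl release 115, and cover counting error only. Coordinates are dm3, counted from 1, from the locus column, whose starts count from 0 (1179 loci had the current gene length when read so, 107 when read from 1). Older gene names were matched through RefSeq's synonyms (Release 6).

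The members and lists were chosen with earlier results of these data known. Named are members with at least 10 FPKM in any group, the largest and smallest ratios, the highest member of each group and members at 0. Alternatives were pseudocounts of 0.1 and 1, no minimum, a minimum in both groups, folds of 1.5 and 3, and rescaling to a median ratio of 1. The counting of calls was tested on simulated data. Python 3.11.15, pandas 2.3.3, NumPy 2.4.6 and matplotlib 3.10.9 were used.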

Additional observations from a re-analysis of the deposited data

How the results depend on the processing

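The number of members past 2-fold at 36 h, 3, became 9 with no minimum FPKM, 7 at a fold of 1.5, 1 at a fold of 3, and 15 when counted as lower at any ratio, which was chosen after seeing the data. With 1 FPKM or more required in both groups, fewer genes were counted, and the number of members past 2-fold went from 15 to 6 at 72 h, from 24 to 13 between ages in wild type and from 21 to 3 between ages in knockdown. A pseudocount of 1 brought the Osiris median log2 ratio from -2.04 to -1.27 at 72 h, from -5.75 to -3.63 between ages in wild type, and from -6.92 to -5.21 between ages in knockdown. The last became -6.26 with a pseudocount of 0.1, -6.28 with no minimum and -5.16 with a minimum in both groups, where the Tweedle median went from 0.94 to 2.88 over 2 genes. Of 276 values of single members past 2-fold, 215 moved by less than 0.5 on the log2 scale. Part of these 215 was fixed in advance, since a changed minimum leaves the ratio of a gene as it is. A pseudocount cannot reverse a ratio either, so that 0 changed direction is no check of the direction. No paired analysis was possible because the values carry no replicate number, and for the same reason no replicate could be left out. Rescaling the ages shifted all ratios between them by 0.40 in wild type and 0.37 in knockdown, which is too little to reverse a member past 2-fold. Depth limits the values under 1 FPKM, most of the Tweedle family among them.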

Other observations

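Cuticle protein genes of the other families that were high at 72 h did not all follow the late Osiris genes, and these examples were picked after their values were seen. Cpr49Ae had 823 FPKM in wild type and 165 FPKM after recovery, a ratio of 0.201, and Lcp65Ag2 had 40.0 and 0.300 FPKM. Cpr64Ad, at 1802 and 1665 FPKM, had a ratio of 0.924, near that of TwdlBeta, and Ccp84Ae had 331 and 444 FPKM. Next to Osi22 on 3R, CG15888 had 59.8 FPKM in wild type and 59.7 FPKM in knockdown at 36 h, and 0.647 and 0.0457 FPKM at 72 h, close to the profile of Osi22. Its neighbour CG15887 had 8.24 and 17.2 FPKM at 36 h, and 53.8 and 18.0 FPKM at 72 h, so it was late and had a ratio of 0.335 after recovery.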
